A study of Mus musculus with 24 samples.

Results

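The glucocorticoid receptor (Nr3c1) and 9 genes that it is known to induce (Fkbp5, Tsc22d3, Per1, Sgk1, Zbtb16, Dusp1, Klf9, Mt1 and Mt2) were followed through 24 mouse liver libraries. The genes were chosen by symbol, and all 10 were listed in each of the 3 expression tables, which share 16678 gene symbols. Bulk RNA came from primary hepatocytes (Pri-Hep), from organoids of hepatocytes (Hep-Orgs; P1, P5, P10) and from organoids of cholangiocytes (Cho-Orgs; P0, P5, P10), each of these 7 groups having 3 libraries. Smart-Seq RNA came from 3 shapes of Hep-Orgs at P0, named grape-like, intermediate and round-like, with a lone library for each. All cells came from wild-type adult BALB/c mice. Pri-Hep were EpCAM-negative cells purified on Percoll, Hep-Orgs were grown from such cells, and Cho-Orgs were grown from EpCAM-positive cells.

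The media differed in the hormone itself. The Hep-Orgs of the bulk experiment were cultured in Hep-Med with dexamethasone (Dex), a synthetic ligand of the receptor, and DAPT, an inhibitor of Notch signalling. The Cho-Orgs medium held neither, and held Forskolin, which raises cAMP, and Wnt3a. Both media held B27, a supplement whose usual formula contains corticosterone, the natural ligand of the receptor in mice. Medium, cell of origin and sequencing experiment therefore cannot be told apart between Hep-Orgs and Cho-Orgs. The study described these 3 shapes in Hep-Med before DAPT and Dex were tried, and the labels do not give the medium of the libraries.

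The glucocorticoid receptor is a nuclear receptor that rests in the cytoplasm with HSP90 and its partner proteins. On binding hormone it enters the nucleus, where it binds DNA as a dimer at paired copies of the core AGAACA or works through other transcription factors. In the liver it is known for inducing enzymes of gluconeogenesis and amino acid breakdown, and in most cells it also induces genes that restrain the hormone response, inflammation and growth signalling.

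Levels were given as FPKM, which corrects fragments for gene length and library depth and so allows genes to be set side by side. Libraries of the hepatocyte table (Pri-Hep and Hep-Orgs) held 14068906 to 27160365 fragments. Depth was estimated as 37570000 to 40050000 fragments for the cholangiocyte table (Cho-Orgs) and as 40040000 to 40400000 for Smart-Seq. The 3 libraries labelled Pri-Hep and the 9 labelled Hep-Orgs went against their labels. In Pri-Hep the summed level over 10 hepatocyte markers was 586 to 621 FPKM, against 4094 to 4182 FPKM over 10 cholangiocyte markers. In the 9 Hep-Orgs libraries the same sums were 600 to 648 and 4041 to 4258 FPKM. In Pri-Hep, 6 of the 10 hepatocyte markers reached a mean of 1 FPKM and 1 was at 0. The 12 libraries of this table were close to each other. A chi-square statistic of their fragments per gene was 1.90 to 3.04 per degree of freedom for pairs of the same group and 1.80 to 4.36 for pairs of different groups. In Cho-Orgs, the hepatocyte marker sum was 5100 to 5960 FPKM at P0, 202 to 236 FPKM at P5 and 87.5 to 93.5 FPKM at P10, and 9, 6 and 3 of the 10 markers reached a mean of 1 FPKM at these passages. Most of the sum at P0 was Alb, with means of 4994, 79.5 and 0.584 FPKM at P0, P5 and P10. Hnf4a changed little, with means of 64.3, 60.9 and 56.4 FPKM, and was most of the sum at P10. Of 8 stellate cell markers only Reln reached a mean of 1 FPKM at P0, at 60.2 to 74.5 FPKM.

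The receptor targets spanned a wide range of levels in the hepatocyte table. Fkbp5 was at 250 FPKM, 256 FPKM and 263 FPKM as the lowest, median and highest of the 12 libraries, which placed it at rank 112 to 118 among the 16678 shared genes. Sgk1 was at rank 174 to 189 and Mt1 at rank 22 to 31, whereas Per1 was at rank 3135 to 3721 and Mt2 at rank 5242 to 7614. In the Cho-Orgs Fkbp5, Sgk1 and Mt1 lay at rank 1793 to 5807, 1366 to 8449 and 151 to 1699. Zbtb16 showed the widest separation. It was at rank 1204 to 1387 in the hepatocyte table and at rank 10731 or lower in every Cho-Orgs library. Nr3c1 itself was at rank 2519 to 2767 in the hepatocyte table and 4090 to 5879 in Cho-Orgs. Each table was normalized on its own, so these levels were set side by side without a test.

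**Figure D1:**
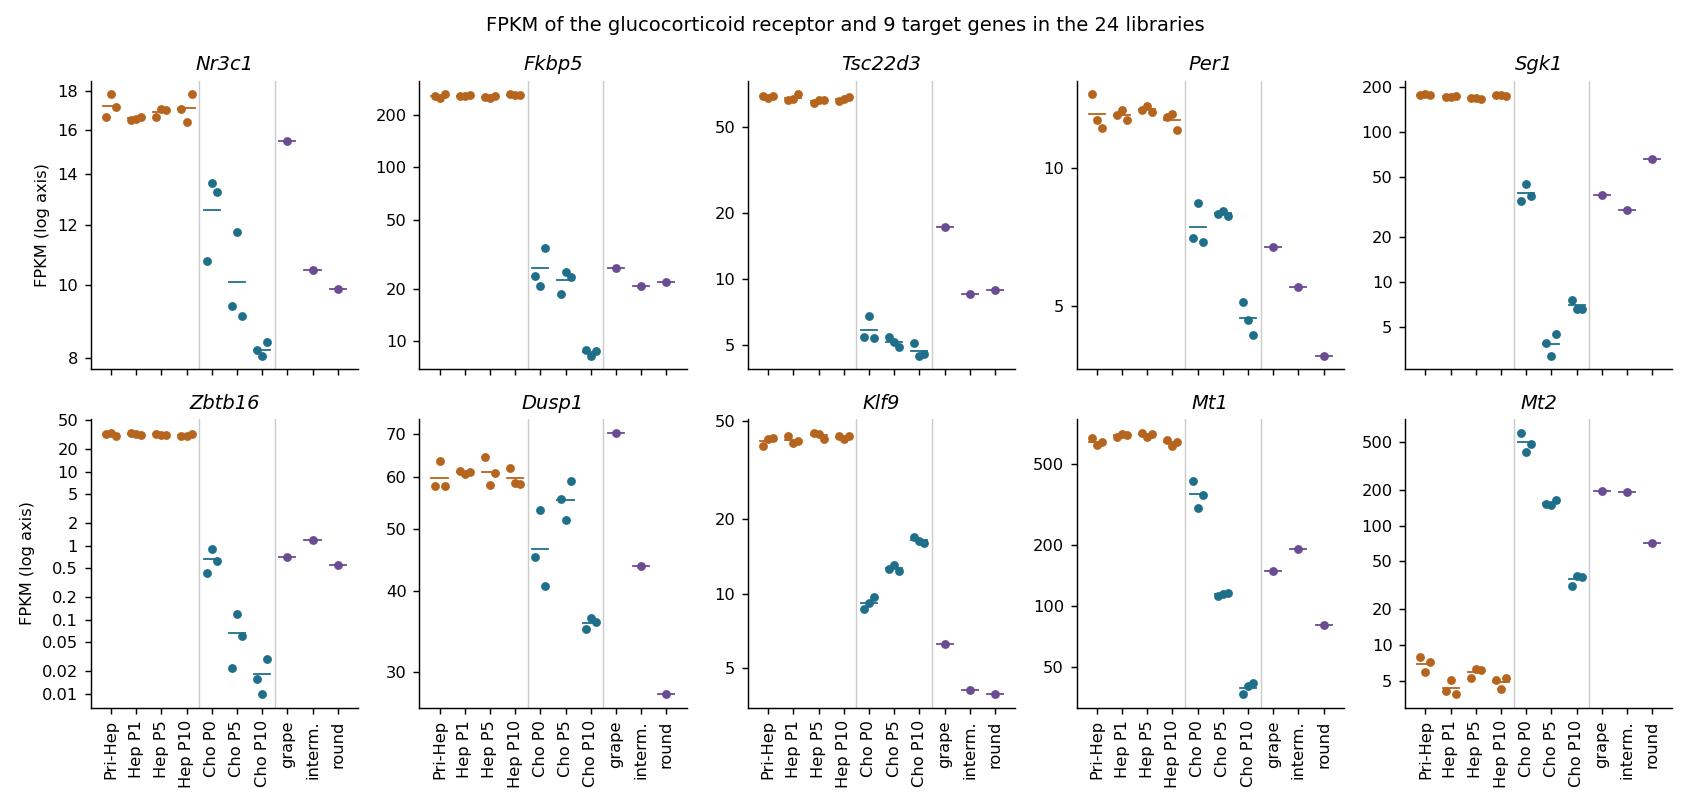
FPKM (log axis, one scale per panel) of each gene in the 24 libraries, with 1 point per library and a bar at the group mean. Brown marks the hepatocyte table, blue the cholangiocyte table and purple the Smart-Seq table. Apart from Mt2, the 12 brown points of each gene lie close together. Of the 10 genes only Mt2 has its brown points below the blue ones in every library.

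**Figure D2:**
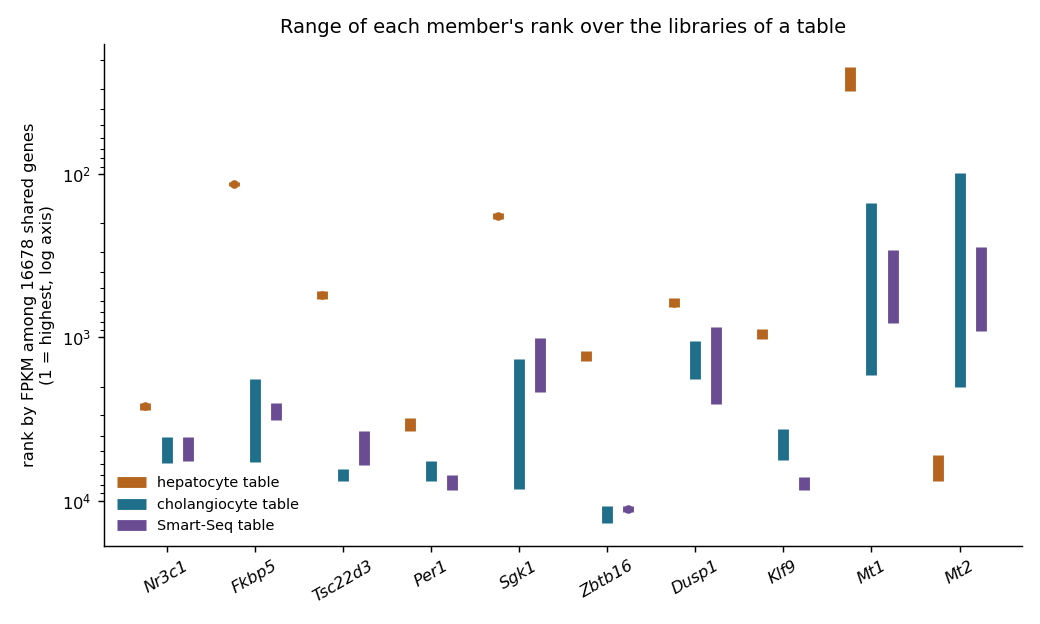
Range of each gene's rank by FPKM among the 16678 shared genes over the libraries of a table (log axis, 1 is the highest level). In the hepatocyte table Fkbp5, Sgk1 and Mt1 lie within the first 189 ranks, and Mt2 lies between 5242 and 7614.

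The first question was whether the receptor and its targets differed between the organoids and the cells labelled as their source, and whether they held over passages in Dex. In Hep-Orgs against Pri-Hep, none of the 10 genes passed the adjusted threshold of 0.05 in limma, where 0% of the 10986 genes tested did. At an unadjusted p under 0.05 there were 3 of the 10 (Sgk1, Mt1 and Mt2) and 966 of all genes, and limma-voom on the recovered fragments called none of the 10 and 12 genes in all. Hep-Orgs P5 against P1 gave 0 of 10 with a background of 0%, and 2 of 10 (Sgk1 and Mt2) at an unadjusted p under 0.05 beside 436 of all genes, while limma-voom called 0 genes. Hep-Orgs P10 against P5 gave 0 of 10 with a background of 0.0273% (3 genes, and 0 with mouse as a replicate block), and 3 of 10 (Fkbp5, Sgk1 and Mt1) unadjusted beside 1266 of all genes. Hep-Orgs P10 against P1 gave 0 of 10 with a background of 0%, and 1 of 10 (Mt1) unadjusted beside 986 of all genes. Apart from Mt2, the fitted changes of the members in these 4 comparisons lay between -0.13 and 0.07 on the log2(FPKM + 1) scale, with standard errors of 0.014 to 0.051. Over the 12 libraries the coefficient of variation of these 9 genes was 1.66% to 4.93%. As given above, pairs of libraries from different groups were about as close as pairs from the same group. The markers also went against the labels. These comparisons therefore cannot show whether the genes were at the level of primary hepatocytes or held over passages in Dex.

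Among these genes Mt1, a metal-binding metallothionein, had the smallest adjusted p from P5 to P10 and from P1 to P10. It was at 678, 702 and 688 FPKM at P1, at 711, 679 and 698 FPKM at P5, and at 657, 613 and 636 FPKM at P10. All P10 libraries lay below those of P5 and P1. Libraries did not overlap for 17.1% of all genes in P10 against P5, 16.3% in P10 against P1 and 10.3% in P5 against P1. The log2 change from P5 to P10 was -0.13 (SE 0.031, limma adjusted p = 0.199) and that from P1 to P10 was -0.12 (SE 0.031, limma adjusted p = 0.286). With limma-voom on recovered fragments, Mt1 passed in both comparisons, at adjusted p = 0.00558 and 0.0237. Sgk1, a kinase that promotes sodium transport, was at 173, 172 and 176 FPKM at P1, at 170, 170 and 167 FPKM at P5, and at 177, 177 and 174 FPKM at P10. The P5 libraries were the lowest, and the log2 change from P5 to P10 was 0.06 (SE 0.017, limma adjusted p = 0.248).

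The glucocorticoid receptor gene Nr3c1 (chromosome 18, 39410545 to 39491301, minus strand, GRCm38) was at 16.4, 16.9 and 17.9 FPKM as the lowest, median and highest of the 12 hepatocyte-table libraries. In Cho-Orgs it was at 10.8, 13.6 and 13.3 FPKM at P0, at 9.37, 11.8 and 9.11 FPKM at P5, and at 8.20, 8.05 and 8.40 FPKM at P10. All P10 libraries were below all others, whereas P0 and P5 overlapped. From P0 to P10 the log2 change was -0.55 (SE 0.10, limma adjusted p = 0.00087). The steps to P5 (-0.29, SE 0.10, limma adjusted p = 0.0354) and from P5 to P10 (-0.26, SE 0.10, limma adjusted p = 0.0534) were smaller and lay near the threshold. The first call was lost without replicate 3 (-0.19, limma adjusted p = 0.321), with TPM (0.064), with all genes above 0 (0.0795) and with only the groups compared (0.0781). The second step passed with mouse as a replicate block (limma adjusted p = 0.0405), with a mean of at least 5 FPKM (0.0492), with TPM (0.0464) and with only the groups compared (0.0183).

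Over the 3 Cho-Orgs comparisons the members changed mostly downward. In P5 against P0, 6 of the 9 members tested passed, beside 56.6% of the 11593 genes tested. Of these, 2 rose (Dusp1 and Klf9) where 34.0% of all genes rose, and 4 fell (Nr3c1, Sgk1, Mt1 and Mt2) where 22.6% of all genes fell. Of all calls 60.04% were higher, against 47.2% with median-ratio size factors, under which 5 members passed and only Klf9 rose. In P10 against P5, 7 of 9 passed beside a background of 61.5%. Here 2 rose (Sgk1 and Klf9, background 31.0%) and 5 fell (Fkbp5, Per1, Dusp1, Mt1 and Mt2, background 30.5%). In P10 against P0, 9 of 9 passed beside a background of 72.3%, of which only Klf9 rose (background 41.0%) and 8 fell (background 31.3%). The median log2 change of the 9 members was -0.20, -0.61 and -0.57 in the 3 comparisons, and that of all genes tested was 0.06, 0.01 and 0.07. Most genes of the table passed too, so the share of members that passed is near the background, and each pair of these comparisons shares the libraries of a passage. With a log2 change of at least 1 required as well, 3, 3 and 4 members were called. The libraries of the passages compared did not overlap for 4, 8 and 9 members, beside 61.5%, 74.2% and 75.1% of all genes tested. In bulk RNA, fewer cells of a type and less RNA per cell cannot be told apart.

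**Figure D3:**
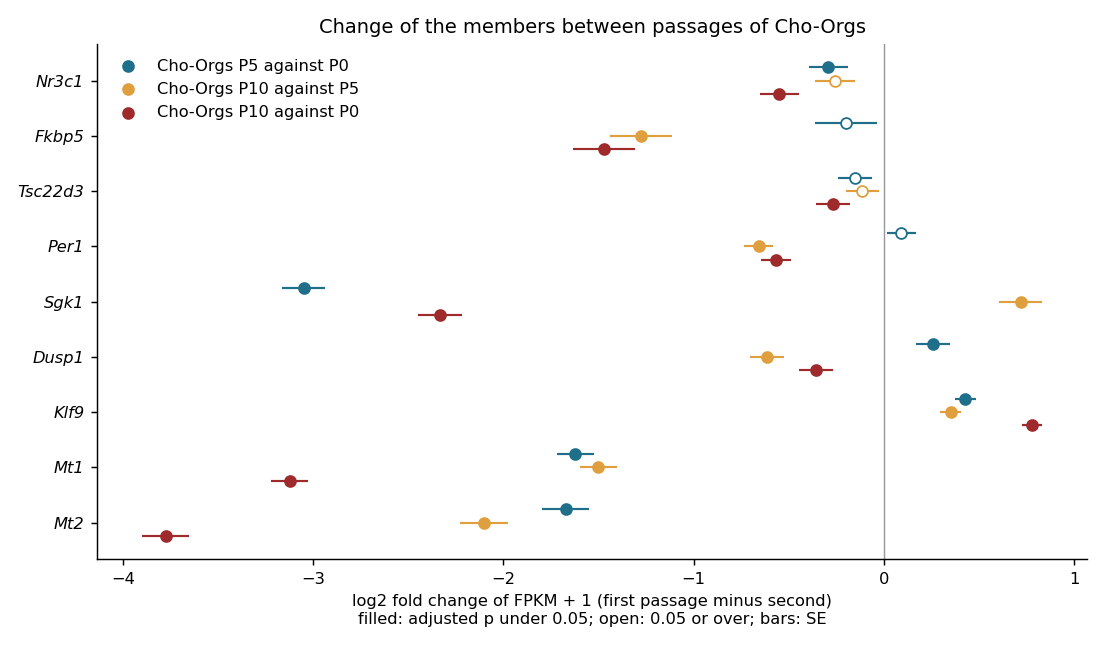
Log2 fold change of FPKM + 1 between passages of Cho-Orgs for the 9 members tested, with bars of 1 SE. Filled points passed the adjusted p of 0.05 in limma and open points did not. Mt1 and Mt2 lie far to the left in all 3 comparisons, Sgk1 lies to the left in those with P0 and to the right in P10 against P5, and Klf9 lies to the right of 0 in all 3 comparisons.

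Fkbp5 (chromosome 17, 28399095 to 28517524, minus strand) encodes a co-chaperone of HSP90 that lowers the receptor's affinity for hormone, and so forms a feedback loop. Its Cho-Orgs levels were 23.8, 20.7 and 34.4 FPKM at P0, 18.8, 25.1 and 23.4 FPKM at P5, and 8.89, 8.20 and 8.78 FPKM at P10. P0 and P5 overlapped, and all P10 libraries were lower than either. The log2 change was -0.20 (SE 0.16, limma adjusted p = 0.324) from P0 to P5 and -1.28 (SE 0.16, limma adjusted p = 0.000111) from P5 to P10. The mean at P10 was 0.384 times that at P5. In the hepatocyte table the P10 libraries (263, 261 and 260 FPKM) lay above those of P5 (255, 250 and 256 FPKM), a log2 change of 0.04 (SE 0.019, limma adjusted p = 0.416). P10 and P5 libraries did not overlap for 17.1% of all genes tested there. The Smart-Seq libraries were at 26.3 FPKM (grape-like), 20.8 FPKM (intermediate) and 21.8 FPKM (round-like), within the range of Cho-Orgs at P0 and P5 and less than those of the hepatocyte table.

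Tsc22d3 (chromosome X, 140539528 to 140600659, minus strand) encodes GILZ, a leucine zipper protein that carries part of the anti-inflammatory action of glucocorticoids. Its hepatocyte-table level was 64.4, 66.9 and 70.5 FPKM as the lowest, median and highest library. In Cho-Orgs it was at 5.41, 6.81 and 5.39 FPKM at P0, at 5.45, 5.15 and 4.87 FPKM at P5, and at 5.12, 4.44 and 4.52 FPKM at P10. Only the P10 and P0 libraries were apart. That change was -0.27 (SE 0.088, limma adjusted p = 0.0202), and it was lost without replicate 2 (-0.14, limma adjusted p = 0.186) or without replicate 3 (-0.29, limma adjusted p = 0.0734). The grape-like library stood at 17.3 FPKM, against 8.51 FPKM (intermediate) and 8.91 FPKM (round-like), with 1 library per subtype and no replicate check.

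Zbtb16 (chromosome 9, 48654297 to 48836222, minus strand) encodes PLZF, a zinc finger repressor. It was at 30.3, 31.9 and 33.9 FPKM as the lowest, median and highest hepatocyte-table library. In Cho-Orgs it was at 0.427, 0.898 and 0.629 FPKM at P0, at 0.0225, 0.118 and 0.0603 FPKM at P5, and at 0.0159, 0.00973 and 0.0292 FPKM at P10. No P5 or P10 library reached a P0 library, and P5 and P10 overlapped. A count of 3 fragments would correspond to about 0.0151 FPKM in this table, so the P10 values rest on a few fragments each. Zbtb16 did not pass the filter of 1 FPKM in 3 libraries. With every gene above 0 included, the log2 change of FPKM + 1, which understates the change of low genes, was -0.62 (SE 0.092, limma adjusted p = 0.00149) from P0 to P5 and -0.07 (SE 0.092, limma adjusted p = 0.658) from P5 to P10. The Smart-Seq libraries were at 0.702 FPKM (grape-like), 1.19 FPKM (intermediate) and 0.549 FPKM (round-like).

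Klf9 (chromosome 19, 23141226 to 23166911, plus strand), a Krüppel-like factor, was the member that rose with passage. In Cho-Orgs it was at 8.69, 9.13 and 9.72 FPKM at P0, at 12.6, 13.1 and 12.4 FPKM at P5, and at 16.9, 16.4 and 16.0 FPKM at P10. The 3 passages did not overlap. The log2 changes were 0.43 (SE 0.053, limma adjusted p = 0.00011) from P0 to P5 and 0.35 (SE 0.053, limma adjusted p = 0.000331) from P5 to P10. Its hepatocyte-table level was 39.6, 42.7 and 45.0 FPKM as the lowest, median and highest library, and the Smart-Seq levels were 6.24 FPKM (grape-like), 4.07 FPKM (intermediate) and 3.91 FPKM (round-like).

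Per1 (chromosome 11, 69095217 to 69109960, plus strand) is a repressor of the circadian clock that glucocorticoids induce. In Cho-Orgs it was at 7.05, 8.40 and 6.88 FPKM at P0, at 7.94, 8.08 and 7.88 FPKM at P5, and at 5.09, 4.65 and 4.32 FPKM at P10. All P10 libraries were lower than the others, and P0 and P5 overlapped. The log2 change from P5 to P10 was -0.66 (SE 0.078, limma adjusted p = 6.54e-05) and that from P0 to P5 was 0.09 (SE 0.078, limma adjusted p = 0.338). Its hepatocyte-table level was 12.1, 13.1 and 14.5 FPKM as the lowest, median and highest library.

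Sgk1 (chromosome 10, 21882184 to 21999903, plus strand) had the largest step of any member between P0 and P5 of Cho-Orgs. It was at 34.9, 45.0 and 37.7 FPKM at P0, at 3.90, 3.19 and 4.48 FPKM at P5, and at 7.62, 6.60 and 6.63 FPKM at P10. The 3 passages did not overlap, with P5 the lowest. The log2 change was -3.05 (SE 0.11, limma adjusted p = 4.70e-08) from P0 to P5 and 0.72 (SE 0.11, limma adjusted p = 0.000454) from P5 to P10. In the Smart-Seq libraries it was highest in the round-like library, at 66.1 FPKM, against 38.1 FPKM (grape-like) and 30.2 FPKM (intermediate). Sgk1 also ran against the other members there, since 9 of the 10 genes were higher in the grape-like than in the round-like library.

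The promoter of Sgk1 is shown because it holds the paired receptor motif. RefSeq gives windows of 250 bases before to 50 bases after a start site (GRCm38.p6), 16 windows for 8 of the members, of which 6 belong to Sgk1. The window chr10:21993640-21993939 (plus strand) holds AGAACA and its reverse complement 3 bases apart, at -189 to -175 with the start site as 0, in capitals. This paired motif was found in 3 of all 32851 windows (0.00913%) and in no other window of a member. The core AGAACA on its own, on either strand, was found in 19.0% of all windows and, among the members, in 3 windows of Sgk1 and 1 of Tsc22d3. A match is a description of the letters in this window and not a bound site.
Sgk1: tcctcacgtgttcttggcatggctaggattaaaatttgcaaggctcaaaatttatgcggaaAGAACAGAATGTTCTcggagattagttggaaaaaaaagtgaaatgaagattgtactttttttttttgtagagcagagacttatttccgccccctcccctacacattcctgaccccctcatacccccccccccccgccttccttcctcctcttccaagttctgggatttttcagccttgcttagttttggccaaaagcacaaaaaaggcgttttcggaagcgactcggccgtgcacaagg

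Dusp1 (chromosome 17, 26505590 to 26508519, minus strand) encodes a phosphatase that switches off MAP kinases, and it also responds to cAMP. Cho-Orgs held it at 45.2, 53.3 and 40.7 FPKM at P0, at 55.5, 51.5 and 59.2 FPKM at P5, and at 35.0, 36.4 and 35.9 FPKM at P10. P0 and P5 overlapped, and all P10 libraries were lower. The log2 change from P5 to P10 was -0.61 (SE 0.090, limma adjusted p = 0.000255). The rise from P0 to P5 was 0.26 (SE 0.090, limma adjusted p = 0.0339), and it was lost with size factors by median ratios (0.17, limma adjusted p = 0.151), without replicate 1 (0.24, limma adjusted p = 0.16), without replicate 3 (0.12, limma adjusted p = 0.362) and with mouse as a replicate block (0.26, limma adjusted p = 0.054). Its hepatocyte-table level was 58.1, 60.8 and 64.4 FPKM as the lowest, median and highest library, so that Dusp1 was the member with the closest levels in Hep-Orgs and Cho-Orgs. The Smart-Seq levels were 70.3 FPKM (grape-like), 43.8 FPKM (intermediate) and 27.7 FPKM (round-like). The window chr17:26508423-26508722 (minus strand, RefSeq, GRCm38.p6) is shown for its cAMP response motif TGACGTCA, in capitals, which lies at -143 to -136 from the start site and is found on either strand in 1.79% of all windows.
Dusp1: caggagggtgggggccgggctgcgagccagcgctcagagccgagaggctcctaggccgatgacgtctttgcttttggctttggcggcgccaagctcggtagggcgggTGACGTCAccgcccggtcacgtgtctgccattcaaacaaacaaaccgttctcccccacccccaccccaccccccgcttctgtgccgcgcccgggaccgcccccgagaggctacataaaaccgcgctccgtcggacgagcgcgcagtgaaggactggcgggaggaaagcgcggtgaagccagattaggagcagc

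Mt1 (94179082 to 94180327) and Mt2 (94172664 to 94173568) are neighbours on the plus strand of chromosome 8 and encode small cysteine-rich proteins that bind zinc and copper. Both are induced by metals and by glucocorticoids. In Cho-Orgs they fell together. Mt1 was at 411, 303 and 351 FPKM at P0, at 111, 114 and 116 FPKM at P5, and at 36.8, 40.3 and 41.8 FPKM at P10. Mt2 was at 603, 415 and 485 FPKM at P0, at 152, 147 and 165 FPKM at P5, and at 31.2, 37.7 and 37.2 FPKM at P10. The 3 passages were apart for both genes. From P0 to P10 the log2 change was -3.12 (SE 0.097, limma adjusted p = 4.93e-09) for Mt1 and -3.78 (SE 0.12, limma adjusted p = 7.47e-09) for Mt2. The mean of Mt1 at P10 was 0.111 times that at P0, and that of Mt2 0.0706 times. The hepatocyte marker sum given above, mostly Alb at P0, fell over the same passages, and its part in the fall of Mt1, Mt2 and Sgk1 was not tested.

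The ratio of the metallothioneins differed between the tables. Mt1 stood at 0.682 to 1.18 times the FPKM of Mt2 in the 9 Cho-Orgs libraries and at 0.761 to 1.12 times in the 3 Smart-Seq libraries. In the 12 libraries of the hepatocyte table it stood at 85.1 to 180 times, with a median of 125. The hepatocyte-table values of Mt1 were 613 to 711 FPKM and those of Mt2 were 3.82 to 7.83 FPKM, the latter resting on 41 to 75 fragments per library. That table listed a length of 588 bases for Mt2 and 1246 bases for Mt1. Whether the gene models used for counting lowered Mt2 there was not tested, so its values and the ratio may not be a level of RNA. Within that table Mt2 was at 7.83, 5.90 and 7.10 FPKM in Pri-Hep, at 4.06, 5.04 and 3.82 FPKM at P1, at 5.24, 6.21 and 6.12 FPKM at P5, and at 5.09, 4.28 and 5.29 FPKM at P10. Pri-Hep and Hep-Orgs overlapped, and the log2 change in Hep-Orgs was -0.41 (SE 0.085, limma adjusted p = 0.255). The longest run of bases that a GENCODE M21 transcript of Mt1 shares with one of Mt2 was 20 bases. The Smart-Seq libraries were at 148, 191 and 80.5 FPKM for Mt1 and at 195, 190 and 71.9 FPKM for Mt2 (grape-like, intermediate and round-like), so that both were lowest in the round-like library.

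**Figure D4:**
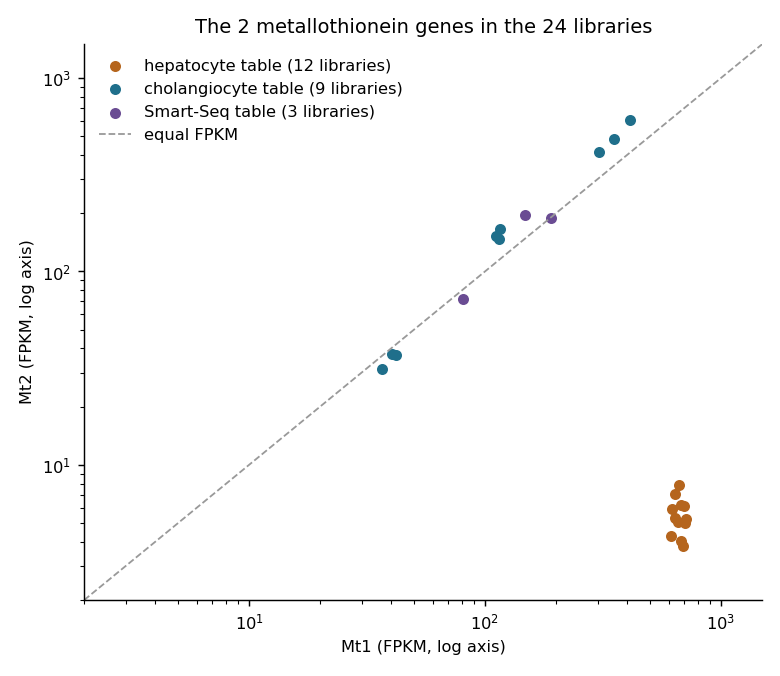
FPKM of Mt2 against FPKM of Mt1 in the 24 libraries (both axes logarithmic), with a dashed line of equal levels. The libraries of the cholangiocyte and Smart-Seq tables lie near the line, and the 12 of the hepatocyte table lie at 613 to 711 FPKM of Mt1 and 3.82 to 7.83 FPKM of Mt2. The part of the gene models used for counting was not tested.

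The promoters of the pair are shown because both hold metal response motifs, whose core TGCACNC or TGCGCNC binds the metal-sensing factor MTF1. The RefSeq windows (GRCm38.p6) were chr8:94178839-94179138 for Mt1 and chr8:94172368-94172667 for Mt2, both on the plus strand. Their start sites, 94179089 and 94172618, differ from the gene starts given above. The bases after the start site matched the start of a GENCODE M21 transcript at a share of 0.5 in both windows. That share was 1 for the Sgk1 and Dusp1 windows shown. Only transcripts starting at or shortly after the site were compared. The gene start of Mt1 lies before its site, and that of Mt2 lies further after its site than was compared. The share therefore cannot tell whether these 2 windows are less sure as promoters. The cores on either strand are in capitals, 3 in Mt1 and 4 in Mt2. The first core was found in 12.6% of all windows and the second in 15.4%. Neither window held AGAACA on either strand.
Mt1: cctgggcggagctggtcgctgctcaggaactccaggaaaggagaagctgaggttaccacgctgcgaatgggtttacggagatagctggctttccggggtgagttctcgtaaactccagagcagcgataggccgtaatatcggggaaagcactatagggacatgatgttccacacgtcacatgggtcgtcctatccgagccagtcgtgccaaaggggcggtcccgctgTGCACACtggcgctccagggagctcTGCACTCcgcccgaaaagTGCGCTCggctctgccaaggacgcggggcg
Mt2: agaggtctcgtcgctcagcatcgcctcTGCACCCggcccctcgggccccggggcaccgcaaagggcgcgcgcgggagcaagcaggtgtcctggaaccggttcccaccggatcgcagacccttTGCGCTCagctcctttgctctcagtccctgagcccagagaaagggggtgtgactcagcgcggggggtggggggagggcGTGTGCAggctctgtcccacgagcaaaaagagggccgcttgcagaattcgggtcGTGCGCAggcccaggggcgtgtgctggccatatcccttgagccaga

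The Smart-Seq libraries gave the 10 genes in the 3 shapes of P0 organoids. Nr3c1 was at 15.5 FPKM (grape-like), 10.5 FPKM (intermediate) and 9.88 FPKM (round-like), and Per1 was at 6.71 FPKM, 5.50 FPKM and 3.87 FPKM. Grape-like over round-like, the ratio was 2.71 for Mt2, 2.53 for Dusp1, 1.94 for Tsc22d3, 1.84 for Mt1, 1.73 for Per1, 1.60 for Klf9, 1.57 for Nr3c1, 1.28 for Zbtb16, 1.21 for Fkbp5 and 0.576 for Sgk1. The median log2 ratio of all 12595 genes compared was -0.13. The summed level of 10 macrophage markers was 10363 FPKM (grape-like), 3045 FPKM (intermediate) and 1681 FPKM (round-like), in the same order as Nr3c1, Per1 and Dusp1. Klf9 and Mt2 had this order as deposited, but it turned between intermediate and round-like for Klf9 with TPM and between grape-like and intermediate for Mt2 with median-ratio size factors. The sum of 8 stellate cell markers was 1381, 355 and 306 FPKM. The hepatocyte marker sum was 4483, 7074 and 1156 FPKM, in the same order as Mt1 and Zbtb16. The part of these cells in the ratios was not tested. With 1 library per subtype there was no test, and each difference compares those libraries only.

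Genes of the receptor's machinery were described from fixed lists. Of 22 genes of the receptor complex and its cofactors, 8 rose and 4 fell between P0 and P10 of Cho-Orgs, with a median log2 change of 0.05. Of all genes 41.0% rose and 31.3% fell, so that fewer of this list passed than of the table. The mineralocorticoid receptor Nr3c2, the closest relative of Nr3c1, fell from 2.43 to 0.914 FPKM (log2 change -0.84, SE 0.075, limma adjusted p = 4.71e-06). The coactivators Ncoa3 (0.69, SE 0.059), Crebbp (0.41, SE 0.062) and Ep300 (0.41, SE 0.048) rose, as did the chaperones Hspa8 (0.56, SE 0.063) and Ppid (0.45, SE 0.054). The chaperone Hsp90ab1, the highest of the list with 977 FPKM on average, did not pass (0.15, SE 0.091, limma adjusted p = 0.151). Fkbp4, a co-chaperone that works against Fkbp5, also did not pass (-0.04, SE 0.075, limma adjusted p = 0.68). P5 against P0 gave 5 genes higher and 3 lower, where 34.0% and 22.6% of all genes were. P10 against P5 gave 8 higher and 5 lower, where 31.0% and 30.5% of all genes were.

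Genes of steroid supply and removal moved in both directions. Of 13 genes, 8 were tested, and between P0 and P10 of Cho-Orgs 2 rose and 4 fell, where 41.0% and 31.3% of all genes did. The filter lets in genes that reach 1 FPKM at P0 alone, and such genes cannot rise from P0 to P10. Genes that reach it at P10 alone cannot fall. The counts therefore describe the tested genes and not a shift of the list. Hsd11b1, which regenerates active corticosterone, fell from 2.39 ± 1.10 FPKM (SD, n = 3) to 0.0108 FPKM on average. Serpina6, which encodes the corticosteroid carrier protein of plasma, was at 35.2 ± 28.2 FPKM (SD, n = 3) at P0 and was listed at 0 at P10. Cyp3a11, a steroid hydroxylase, was at 82.4 ± 59.6 FPKM (SD, n = 3) at P0 and was listed at 0 at P10. The efflux pump gene Abcb1b rose from a mean of 1.25 FPKM at P0 (log2 change 3.08, SE 0.11, limma adjusted p = 9.20e-09), and Cyp3a13 rose by 1.21 (SE 0.12). From P0 to P5 1 gene rose and 4 fell, where 34.0% and 22.6% of all genes did. From P5 to P10 4 rose and none fell, where 31.0% and 30.5% of all genes did. The hepatocyte marker sum fell over both steps, and its part in these changes was not tested. In the hepatocyte table Hsd11b1 was at 0.393 to 0.710 FPKM over the 12 libraries and H6pd, which feeds Hsd11b1 with cofactor, at 304 FPKM on average.

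Targets of the receptor outside the members moved in both directions. Of 30 general targets, 24 were tested in Cho-Orgs, and 13 rose and 4 fell from P0 to P5, 6 rose and 11 fell from P5 to P10, and 9 rose and 13 fell from P0 to P10. The shares of all genes that rose and fell were 34.0% and 22.6%, 31.0% and 30.5%, and 41.0% and 31.3% in these comparisons. The median log2 change from P0 to P10 was -0.29, and that of all genes was 0.07. Lcn2, which encodes a secreted iron-carrier protein, fell from 6426 to 420 FPKM (-3.88, SE 0.18, limma adjusted p = 5.01e-08). Rgs2, a brake on G-protein signalling, fell by 3.65 on the log2 scale (SE 0.18), and Hif3a fell by 2.24 (SE 0.14). The growth arrest gene Gadd45a rose by 2.70 (SE 0.12), Anxa1, which encodes an anti-inflammatory protein, by 1.62 (SE 0.088), and Cited2 by 1.12 (SE 0.046). Of 15 hepatic targets, 10 were tested, and 2 rose and 6 fell from P0 to P10. As for the steroid genes, a target that passed the filter through P0 alone could not rise, so these counts show no shift of the list. Tat, tyrosine aminotransferase, fell from 24.2 to 0.0766 FPKM (-4.55, SE 0.098, limma adjusted p = 6.13e-10). Igfbp1 and Orm1 were at 181 and 115 FPKM at P0 and were listed at 0 at P10. Tat and Cps1 of this list are also hepatocyte markers. The hepatocyte marker sum fell over the same passages, and its part in the changes of the hepatic targets was not tested. Cyp2b10 and Fgf21 rose by 1.76 (SE 0.14) and 1.24 (SE 0.12).

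The hepatic targets differed in level in the hepatocyte table. Gpt, alanine aminotransferase, was at 18.3 to 21.4 FPKM over the 12 libraries, Tat was at 0.198 to 0.621 FPKM and G6pc, glucose-6-phosphatase, was at 0.413 to 1.07 FPKM. The filter of that table was passed by 4 of the 15 hepatic targets, 27 of 30 general targets and 10 of 10 members. Of all 31053 genes listed there, 10986 passed it. Among the general targets Lcn2 was at 2502 to 2739 FPKM and Errfi1, a brake on EGF receptor signalling, at 263 to 273 FPKM. No gene of any list passed in the 4 comparisons of the hepatocyte table with limma. Of 27 general targets tested there, 2, 1, 2 and 3 had an unadjusted p under 0.05 in Hep-Orgs against Pri-Hep, P5 against P1, P10 against P5 and P10 against P1. Of all 10986 genes tested, 966, 436, 1266 and 986 did so in these comparisons.

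Lists for the other inputs of the members were described in the same way. Of 7 cAMP response genes tested in Cho-Orgs, 7 fell from P5 to P10, with a median log2 change of -1.08. Of all genes 31.0% rose and 30.5% fell over this step. The members Fkbp5, Per1, Dusp1, Mt1 and Mt2 fell over the same step, and the part of cAMP in this was not tested. The nuclear receptor genes Nr4a1 and Nr4a2 fell by 2.29 (SE 0.34) and 1.74 (SE 0.14), and the phosphodiesterase gene Pde4b fell by 1.98 (SE 0.18). From P0 to P5, 3 of the 7 rose and 2 fell, and from P0 to P10 1 rose (the growth factor Areg, 1.21, SE 0.051) and 6 fell. Of all genes 34.0% rose and 22.6% fell from P0 to P5, and 41.0% and 31.3% did from P0 to P10. Of 13 clock genes, 2 rose and 5 fell from P5 to P10. The repressor gene Bhlhe40 fell from 99.4 to 24.6 FPKM and Dbp fell from 28.9 to 8.77 FPKM, whereas Ciart rose by 0.98 (SE 0.085). Of 8 metal response genes, none rose and 4 fell over the same step, among them Slc39a14, a zinc importer (-0.77, SE 0.14), and Mt3 (from 1.41 to 0.0165 FPKM). Slc30a1, a zinc exporter and target of MTF1, fell from P0 to P5 by 0.32 (SE 0.083, limma adjusted p = 0.00814). Of 11 immediate early genes, 2 rose and 5 fell from P5 to P10, with Fos falling by 1.03 (SE 0.26) and Atf3 rising by 1.69 (SE 0.40).

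Relatives of the members were described last. Of 13 paralogs tested, 6 rose and 2 fell from P0 to P10 of Cho-Orgs, with a median log2 change of 0.07. These values are near those of all genes, of which 41.0% rose and 31.3% fell with a median of 0.07. Dusp4, Dusp5 and Dusp6, phosphatases of the same family as Dusp1, rose by 1.03 (SE 0.042), 1.25 (SE 0.080) and 0.67 (SE 0.088), whereas Dusp1 fell by 0.36 (SE 0.090). Tsc22d1 and Tsc22d2 rose by 0.49 (SE 0.069) and 0.66 (SE 0.069), whereas Tsc22d3 fell by 0.27 (SE 0.088). Klf13 rose by 0.45 (SE 0.053) alongside Klf9. The differences between relatives were not tested.

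**Figure D5:**
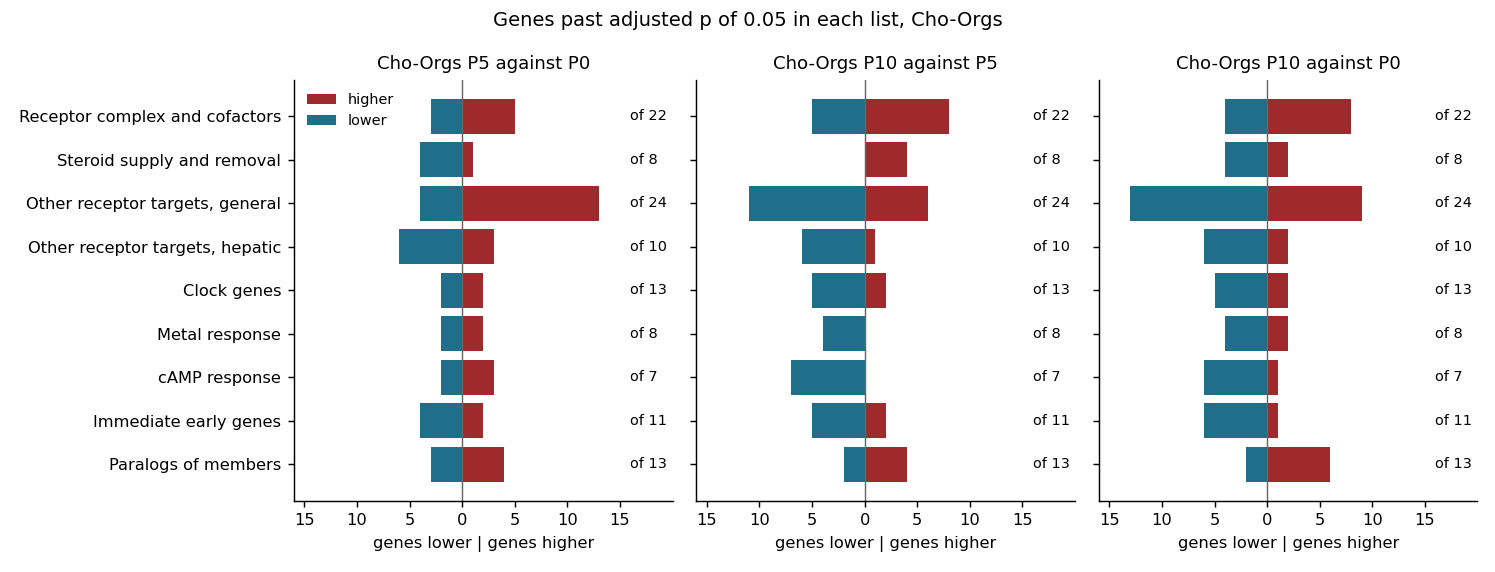
Number of genes of each list that were higher (red, to the right) or lower (blue, to the left) past an adjusted p of 0.05 in limma, in 3 comparisons of Cho-Orgs, with the number tested at the right. The cAMP response genes lie to the left with 7 of 7 in P10 against P5, where 30.5% of all genes fell. The general targets have 13 higher and 4 lower genes in P5 against P0, where 34.0% of all genes rose and 22.6% fell.

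The genes with the profile most like each member over the 9 Cho-Orgs libraries were found by the distance between centred log2(FPKM + 1) values. Nearest to Nr3c1 was Cpt2 (Pearson r = 0.959 over 9 libraries), to Fkbp5 Ffar4 (0.985), to Tsc22d3 Nectin2 (0.940), to Per1 Zbtb38 (0.989), to Sgk1 Ltb (0.988), to Zbtb16 Gprasp1 (0.990), to Dusp1 Foxa2 (0.987), to Klf9 Acap2 (0.996), to Mt1 Uhrf1 (0.997) and to Mt2 Pbk (0.996). Among the members, Mt1 and Mt2 were the most alike (r = 0.996), and Klf9 ran opposite to Mt1 (r = -0.993). These values describe 3 passages of 3 libraries each, which share the steps between passages. The distance to the nearest gene ran from 0.116 (Klf9) to 0.884 (Sgk1), so a high r can go with a distant profile. Zbtb16, under the filter, had means of 0.651, 0.0669 and 0.0183 FPKM at P0, P5 and P10. Gprasp1 had means of 4.16, 2.26 and 2.11 FPKM. Their likeness holds on the log2(FPKM + 1) scale, which understates changes of low genes.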

How the data were processed

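Poly(A) RNA (bulk) or amplified full-length cDNA (Smart-Seq) was sequenced. The authors deposited FPKM for each experiment in 3 tables, and the submitters' processing notes name mm10, featureCounts 2.0.3 and edgeR 3.40.2. The aligner is not given in the sources used here. All 24 libraries were grouped by their labels, and each value column belonged to a labelled library. Fragments were recovered from FPKM and the listed gene length in the hepatocyte table, and all values were whole within 0.1 fragments. Depth of the other tables was estimated from low values and GENCODE M21 lengths. Floors are 3 fragments and cover counting error only.

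Values were compared as log2(FPKM + 1), with genes at 1 FPKM or more in at least 3 libraries, in R 4.3.3 with limma 3.58.1 (lmFit, eBayes with trend, all groups of a table together, two-sided, Benjamini-Hochberg over all genes, threshold 0.05). Fold changes on this scale understate those of low genes. The 3 tables were never fitted together, and the Smart-Seq libraries were not tested. The study's legends tie the numbers 1, 2 and 3 to 3 mice, and its methods describe the replicates as separate cell cultures. Same-numbered libraries were therefore taken to share a mouse, which the titles of Pri-Hep and Hep-Orgs do not state. Deviations of same-numbered libraries from their group means had a median correlation of -0.0016 (Pri-Hep and Hep-Orgs) and -0.0063 (Cho-Orgs). For libraries with different numbers it was -0.0018 and -0.0030. The main design had no block, and a fit with the number as a block was an alternative. From each list, genes past the threshold were named, up to 6 per comparison by size of change, with the highest expressed gene. The members and lists were chosen with earlier results of these data known. RefSeq promoter windows were searched on both strands for the motifs named with their promoters and for CACGTG (7.15% of windows). Python 3.11.15, pandas 2.3.3, numpy 2.4.6 and matplotlib 3.10.9 were used. The scripts were tested on simulated data. Alternatives were a pseudocount of 0.1, all genes above 0, a mean of at least 5 FPKM, TPM, median-ratio size factors, no trend, a replicate block, only the groups compared, leaving out each replicate, a log2 change of at least 1 and limma-voom on recovered fragments.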

Additional observations from a re-analysis of the deposited data

Results flagged for a closer look

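Nr3c1 in replicate 3 of Hep-Orgs P10, at 17.9 FPKM, stood apart from the other 8 of the 9 Hep-Orgs libraries by a gap large for their range. Such gaps are found in about 1 group in 20 by chance, and 10 genes were looked at. The Fkbp5 libraries of P10 and P5 lay in opposite orders. All P10 libraries were above P5 in Hep-Orgs (log2 change 0.044), and all were below P5 in Cho-Orgs (log2 change -1.28). The difference between these changes was not tested, since the tables were normalized separately, and the change in Hep-Orgs did not pass its own test. P10 and P5 libraries did not overlap for 17.1% of all genes tested in Hep-Orgs and for 74.2% in Cho-Orgs.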

How the results depend on the processing

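Counts of all genes called and of members called were compared under each alternative. In Hep-Orgs against Pri-Hep, 1 gene was called with all genes above 0 and 12 with limma-voom, against 0. In Hep-Orgs P5 against P1, 1 was called with all genes above 0, and leaving out a replicate gave 0 to 3 (3 without replicate 2). In Hep-Orgs P10 against P5, the 3 calls became 0 with all genes above 0, without trend, with only the groups compared and with a log2 change of at least 1, 0 to 2 without a replicate, and 28 (1 member, Mt1) with limma-voom. In Hep-Orgs P10 against P1, limma-voom called 29 genes (1 member, Mt1). In Cho-Orgs P5 against P0, leaving out a replicate gave 4268 to 5269 genes (fewest without replicate 3), and 4 to 6 members. A log2 change of at least 1 left 889 genes (3 members), 951 (3 members) and 1836 (4 members) in Cho-Orgs P5 against P0, P10 against P5 and P10 against P0. The causes were not tested beyond the fewer libraries or stricter rule.

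Changes of members near 0 turned sign when a replicate was left out, without being called. In Hep-Orgs against Pri-Hep the range was -0.023 to 0.079 for Dusp1, -0.0076 to 0.073 for Klf9, -0.043 to 0.060 for Per1, -0.0022 to 0.021 for Fkbp5, -0.045 to 0.037 for Zbtb16 and -0.045 to 0.0056 for Nr3c1. In Hep-Orgs P5 against P1 it was -0.014 to 0.045 for Mt1 and -0.031 to 0.033 for Dusp1, and in P10 against P5 it was -0.011 to 0.048 for Nr3c1. In the Smart-Seq libraries, intermediate minus round-like turned for Klf9 with TPM (-0.0026) and for Fkbp5 (0.081) and Tsc22d3 (0.074) with median-ratio size factors, as did grape-like minus intermediate for Mt2 (-0.028). In Cho-Orgs no member turned sign. The median-ratio factors moved the share of higher calls of Cho-Orgs from 60.04% to 47.2% in P5 against P0, and TPM gave a median change of all genes of 0.11. In single members, 24 calls were lost and 6 gained over all alternatives.

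With mouse as a replicate block, Hep-Orgs P10 against P5 gave 0 genes, and the Cho-Orgs comparisons gave 6381, 6939 and 8278 genes and 5, 8 and 9 members. Dusp1 was lost in P5 against P0 and Nr3c1 was gained in P10 against P5 (adjusted p = 0.0405, limma), and this pairing changed no other call of a member. Depth limited Mt2 in the hepatocyte table and Zbtb16 in late Cho-Orgs, which rest on few fragments.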
